A study of Mus musculus with 9 samples.

Results

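The genes described are 10 oxygen-dependent dioxygenases that act on histones, DNA and collagen, namely the histone demethylases Kdm3a, Kdm4b, Kdm4c, Kdm5b and Kdm6b, the DNA dioxygenases Tet1, Tet2 and Tet3, and the collagen prolyl 4-hydroxylases P4ha1 and P4ha2. They were chosen by name, for their enzymatic class. The rule uses no measured value, but earlier results of these data were known when it was set. All 10 were found among the 55401 genes counted and among the 16762 genes with enough counts to be tested. RNA was sequenced from primary neonatal mouse ventricular myocytes (NMVMs), heart muscle cells taken from wild-type C57BL/6J mice at 1 day of age. The control group (n = 3 libraries) stayed in normal oxygen and complete medium, and the growth medium was DMEM with 10% FBS. The hypoxia group (n = 3) spent 6 h in a sealed AnaeroPack chamber in DMEM without glucose and serum. The hypoxia + rSRGN group (n = 3) had the same medium and chamber, with recombinant serglycin (rSRGN), a proteoglycan core protein, added at a dose not given in the sources used here. Low oxygen and the change of medium therefore cannot be told apart in any comparison with control. The labels do not say whether the libraries of a group came from separate cultures or litters, and the p-values measure only the spread between these samples, which may be technical.

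These enzymes share a catalytic iron atom and use molecular oxygen and 2-oxoglutarate to hydroxylate their substrate. JmjC histone demethylases remove methyl groups from lysines of histone H3 in this way, and TET proteins oxidise 5-methylcytosine in DNA. Prolyl 4-hydroxylases modify prolines of procollagen so that the collagen triple helix is stable at body temperature, and P4ha1 and Kdm3a are textbook targets of the hypoxia-inducible factor HIF. Transcript levels, and not enzyme activity or marks on chromatin, were measured here.

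Total counts ran from 21669017 to 22781557 in the control libraries, from 16583985 to 18148474 under hypoxia and from 16640239 to 20826701 with rSRGN. Levels are given as CPM, counts per 1000000 with TMM-scaled library sizes. The cell type was checked against 15 cardiomyocyte markers, all of which had counts in every group, and their summed level was 57311 to 69871 CPM in control, 4809 to 7502 CPM under hypoxia and 9797 to 10428 CPM with rSRGN. The summed level of 12 fibroblast markers was 11552 to 13600 CPM in control, 22524 to 25281 CPM under hypoxia and 25474 to 26495 CPM with rSRGN. The label of ventricular myocytes thus matched the control libraries, while in both hypoxic groups the fibroblast sum lay above the cardiomyocyte sum. The sums of 10 macrophage markers were 44.6 to 53.6, 11.3 to 12.9 and 12.99 to 16.1 CPM, those of 9 endothelial markers 112 to 144, 105 to 121 and 116 to 144 CPM, and those of 8 smooth muscle and pericyte markers 1732 to 2049, 2433 to 2742 and 2305 to 2433 CPM, in the same order. For hypoxia against control, 9 of the macrophage markers and 6 of the endothelial markers fell and 0 rose in either list by edgeR and by DESeq2 (0 and 1 higher at an unadjusted p below 0.05), and of the smooth muscle and pericyte markers 2 rose and 1 fell. In such bulk RNA, fewer cells of a type and less RNA per cell cannot be told apart, which touches every result below.

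The upstream sequences of both collagen prolyl 4-hydroxylases are shown because P4ha1 had the largest rise among the 10 genes and P4ha2 is its paralog. They were chosen with these values known. The 250 bases before the RefSeq transcription start (GRCm38.p6) were searched on both strands for ACGTG and GCGTG, the core letters of the HIF binding motif, and capitals mark each match or its reverse complement (CACGT or CACGC). The P4ha1 window is chr10:59323046-59323295 and the P4ha2 window chr11:54100674-54100923, both on the plus strand and printed 5′ to 3′. The gene span used for counting starts right after the P4ha1 window. For P4ha2 it starts at chr11:54100095, so the P4ha2 window lies inside it and is upstream only of the RefSeq start. The windows of Tet1, Tet2 and Tet3 also lie inside the counted spans.
P4ha1: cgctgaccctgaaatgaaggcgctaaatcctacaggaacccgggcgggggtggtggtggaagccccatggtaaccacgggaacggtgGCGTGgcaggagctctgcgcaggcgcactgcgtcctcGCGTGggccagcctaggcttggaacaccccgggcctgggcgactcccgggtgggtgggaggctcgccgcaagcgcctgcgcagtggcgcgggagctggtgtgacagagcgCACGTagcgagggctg
P4ha2: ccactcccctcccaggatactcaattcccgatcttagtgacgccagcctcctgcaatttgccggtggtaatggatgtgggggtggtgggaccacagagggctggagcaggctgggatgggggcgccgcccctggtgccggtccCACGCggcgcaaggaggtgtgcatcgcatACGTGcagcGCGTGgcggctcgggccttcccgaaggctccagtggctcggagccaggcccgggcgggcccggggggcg
Each window held 1 match to ACGTG and 2 matches to GCGTG, none of which overlapped another. The P4ha1 window had 24 CpG dinucleotides and the P4ha2 window 21, against a median of 6 over all promoters and a range of 0 to 51, the highest for Tet2, over the 11 promoters found for these genes. The table held 11 promoters for 8 of the 10 genes and none for Kdm4b and Kdm6b. Either motif was found in 6 of these 11 promoters, 1 each of Kdm3a, Kdm4c, Kdm5b, Tet2, P4ha1 and P4ha2, and in 38.6% of all 32851 promoters (ACGTG in 16.6% and GCGTG in 28.2%). A window of Kdm4c held more than those shown, with 4 matches to ACGTG, where each CACGTG counts on both strands, and 2 to GCGTG, and the Kdm5b window held 1 of each. The Tet2 window held 1 match to ACGTG, 1 of the 3 Kdm3a windows held 1 match to GCGTG, and the single windows of Tet1 and Tet3 had 0 matches. A match describes the letters of a window and is not a measured binding site.

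Under hypoxia, 1 of the 10 transcripts rose, P4ha1, and 4 fell, Kdm4b, Kdm5b, Tet1 and Tet2. A gene was called changed when edgeR's quasi-likelihood test gave a Benjamini-Hochberg adjusted p below 0.05 over all tested genes and the fold change was at least 1.5, which is 0.585 on the log2 scale. By this rule 51.6% of all tested genes were called for hypoxia against control, 26.4% higher and 25.1% lower, so that 5 of 10 is close to the share over all genes. The median log2 fold change of the 10 genes was -0.28, beside 0.05 for all tested genes. The libraries of the 2 groups did not overlap for 3 genes that were higher (Tet3, P4ha1 and P4ha2) and 5 that were lower (Kdm4b, Kdm4c, Kdm5b, Tet1 and Tet2), where 37.7% and 35.3% of all tested genes, 73% together, did so. The 10 genes thus spread from a log2 fold change of -3.14 for Tet1 to 1.41 for P4ha1, with members of the same enzyme family on both sides of 0.

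**Figure D1:**
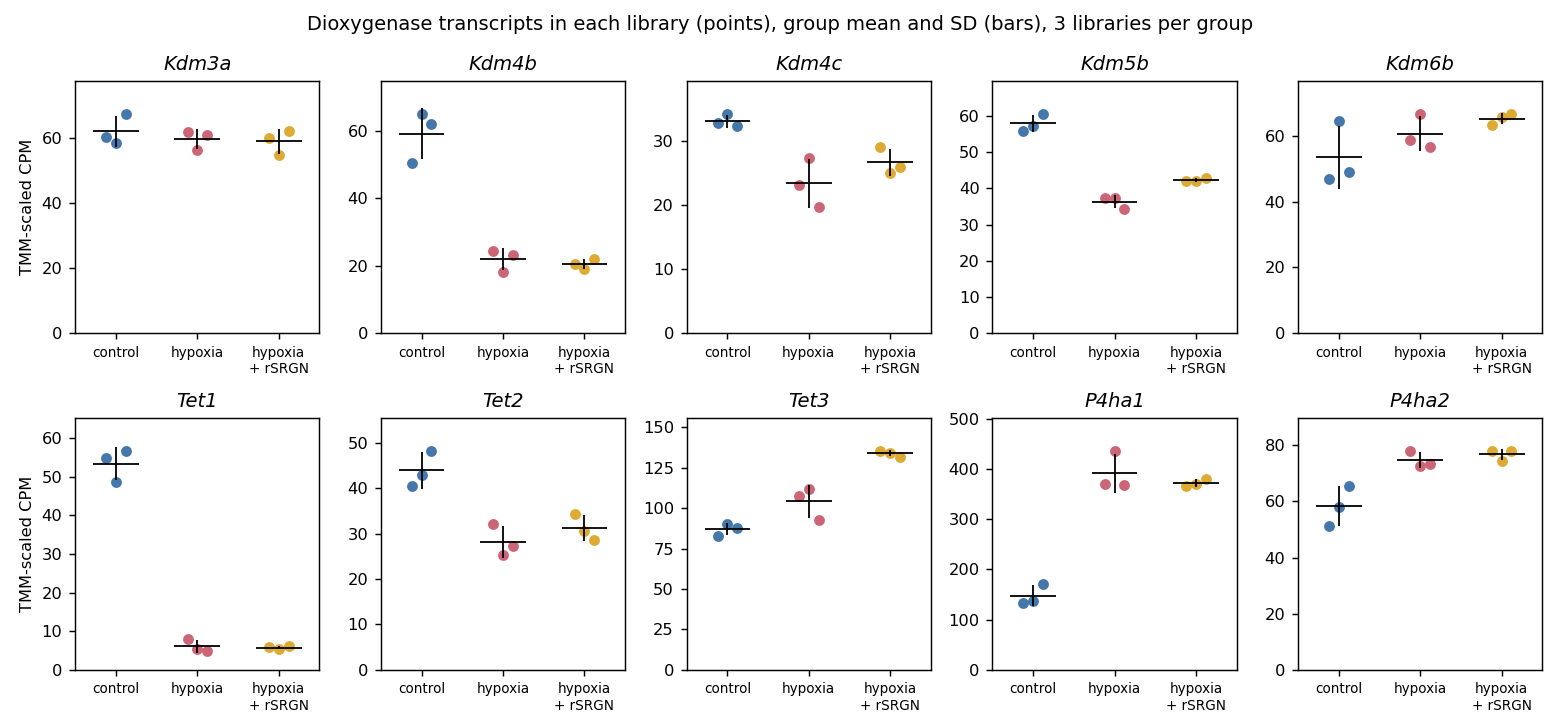
TMM-scaled CPM of the 10 transcripts in each library, 1 panel per gene with its own axis from 0; points are libraries, and bars give the mean and SD of the 3 libraries of a group. Tet1 and Kdm4b lie far below control in both hypoxic groups, P4ha1 lies above it, and Tet3 is highest in the 3 hypoxia + rSRGN libraries, at 132 to 136 CPM.

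Kdm3a and the KDM4 enzymes remove methyl groups from lysine 9 of histone H3, and KDM4 enzymes act on lysine 36 as well. Kdm4b (chr17:56326062-56402870, plus strand) had 50.6, 65.0 and 61.9 CPM in the control libraries, 24.3, 18.2 and 23.2 under hypoxia and 20.5, 19.1 and 21.97 with rSRGN. Every hypoxic library was thus below the lowest control library. Kdm4b was 2.70-fold lower under hypoxia (log2 fold change -1.43, SE 0.11, edgeR adjusted p = 2.18e-10). Its paralog Kdm4c (chr4:74242497-74405860, plus strand) had 32.8, 34.3 and 32.3 CPM in control, 23.2, 27.3 and 19.8 under hypoxia and 29.1, 24.96 and 26.0 with rSRGN. The hypoxia libraries of Kdm4c did not overlap with control, but its log2 difference of -0.50 (SE 0.11, edgeR adjusted p = 3.46e-04) was under the 1.5-fold limit. Without hypoxia replicate 2, the highest of that group for Kdm4c, the difference was -0.63 and passed the limit.

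Within the KDM4 family the balance between paralogs differed between the groups. Per kb of exon, Kdm4b made up 35.4% ± 2.2 (SD, n = 3) of the summed level of Kdm4a, Kdm4b and Kdm4c in control and 18.6% ± 1.9 under hypoxia, while the share of Kdm4a went from 47.9% ± 1.2 to 64.5% ± 1.6. The shares of the groups did not overlap, and the 2-sided exact permutation p was 0.1 for each, the smallest that 3 libraries against 3 can give. Kdm4a itself had a log2 fold change of -0.07 and was not called, and the share of Kdm4c was 16.8% ± 1.0 in control and 16.9% ± 3.5 under hypoxia. The family total went from 34.1 ± 2.4 to 24.0 ± 1.8 CPM per kb.

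Kdm3a (chr6:71588972-71632990, minus strand), a demethylase of mono- and dimethylated lysine 9, had 60.5, 58.5 and 67.5 CPM in control, 61.9, 56.3 and 61.0 under hypoxia and 59.9, 54.9 and 62.4 with rSRGN. The 3 groups overlapped. The log2 difference between hypoxia and control was -0.06 with a 95% interval from -0.22 to 0.11 (edgeR adjusted p = 0.547), and it was 0.01 when scaled by library size alone. Its paralog Kdm3b fell with a log2 fold change of -0.88, so that the share of Kdm3a in the summed KDM3 level per kb was 39.6% ± 2.2 in control and 45.3% ± 1.3 under hypoxia (exact permutation p = 0.1). The other KDM3 gene, Jmjd1c, had a log2 fold change of 0.04 and was not called.

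Kdm5b (chr1:134560171-134635285, plus strand) removes methyl groups from lysine 4 of histone H3, a mark of active promoters. It had 55.9, 57.3 and 60.6 CPM in control, 37.3, 37.4 and 34.2 under hypoxia and 41.9, 42.0 and 42.9 with rSRGN. The 3 groups did not overlap with each other, and control was highest. Kdm5b was 1.60-fold lower under hypoxia (log2 fold change -0.67, SE 0.08, edgeR adjusted p = 1.59e-07). Its share of the summed KDM5 level per kb was 10.5% ± 0.5 in control and 10.4% ± 0.3 under hypoxia. Kdm5c, the most abundant of Kdm5a, Kdm5b and Kdm5c, fell as well (log2 fold change -0.78), and the family total went from 33.4 ± 1.9 to 21.1 ± 0.6 CPM per kb.

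Kdm6b (chr11:69398508-69413675, minus strand) removes methyl groups from lysine 27 of histone H3, the mark set by the Polycomb complex. It had 46.8, 64.5 and 49.0 CPM in control, 58.8, 66.6 and 56.5 under hypoxia and 63.4, 65.6 and 66.7 with rSRGN. Control replicate 2 lay among the hypoxic libraries, so the groups overlapped. The log2 difference between hypoxia and control was 0.18 with a 95% interval from -0.03 to 0.39 (edgeR adjusted p = 0.109). Its share of the summed Kdm6a and Kdm6b level per kb was 57.1% ± 3.9 in control and 64.8% ± 2.8 under hypoxia. These shares did not overlap (exact permutation p = 0.1), and Kdm6a (log2 fold change -0.27) was not called. The counting used no strand information, and 4.11% of the exon bases of Kdm6b overlap a gene on the opposite strand, Kdm6bos, whose reads cannot be told apart there.

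The TET genes gave the widest spread within a family. Tet1 (chr10:62804570-62908996, minus strand) had 54.8, 48.7 and 56.8 CPM in control, 8.0, 5.3 and 4.9 under hypoxia and 5.8, 5.3 and 6.0 with rSRGN, from 1220, 1078 and 1175 counts in control and 84 to 148 counts in the 6 hypoxic libraries. The lowest control library was thus far above the highest hypoxic one. Tet1 was 8.82-fold lower under hypoxia (log2 fold change -3.14, SE 0.14, edgeR adjusted p = 7.53e-15), and 3.47% of the tested genes had a lower log2 fold change. The summed cardiomyocyte markers were 9.98-fold lower and all 15 of them fell in the same comparison, and the part of this in the result for Tet1 was not tested.

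Tet2 (chr3:133463679-133545139, minus strand) had 40.5, 43.0 and 48.4 CPM in control, 32.1, 25.3 and 27.3 under hypoxia and 34.4, 30.7 and 28.7 with rSRGN. All control libraries lay above all hypoxic ones. Tet2 was 1.56-fold lower under hypoxia (log2 fold change -0.64, SE 0.10, edgeR adjusted p = 1.28e-05). This call was lost at the 1.5-fold limit without control replicate 3 (log2 fold change -0.57), without hypoxia replicate 2 (-0.57) and with scaling by library size alone (-0.57). A share of 0.255% of its exon bases overlaps a gene on the opposite strand.

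Tet3 (chr6:83362373-83459084, minus strand) had 83.0, 90.5 and 87.7 CPM in control, 107.5, 112.2 and 92.9 under hypoxia and 135.7, 134.5 and 132.0 with rSRGN. The 3 groups did not overlap and were ordered from control to hypoxia to hypoxia + rSRGN. The log2 difference between hypoxia and control was 0.26 (SE 0.08, edgeR adjusted p = 0.00474), a 1.20-fold difference under the limit.

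The make-up of the TET transcripts differed accordingly. Tet1 supplied 30.6% ± 2.1 (SD, n = 3) of the summed TET level per kb of exon in control, 4.66% ± 1.00 under hypoxia and 3.59% ± 0.29 with rSRGN. Tet3 supplied 46.3% ± 2.2, 75.1% ± 3.0 and 78.3% ± 1.1 in the same order, and Tet2 23.1% ± 1.2, 20.2% ± 2.3 and 18.1% ± 1.2. The shares of Tet1, Tet2 and Tet3 did not overlap between control and hypoxia (2-sided exact permutation p = 0.1 each, the smallest possible). The total TET level was 11.3 ± 0.5 CPM per kb in control, 8.31 ± 0.71 under hypoxia and 10.3 ± 0.3 with rSRGN, and it did not overlap between control and hypoxia or between hypoxia and hypoxia + rSRGN (exact permutation p = 0.1 each).

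**Figure D2:**
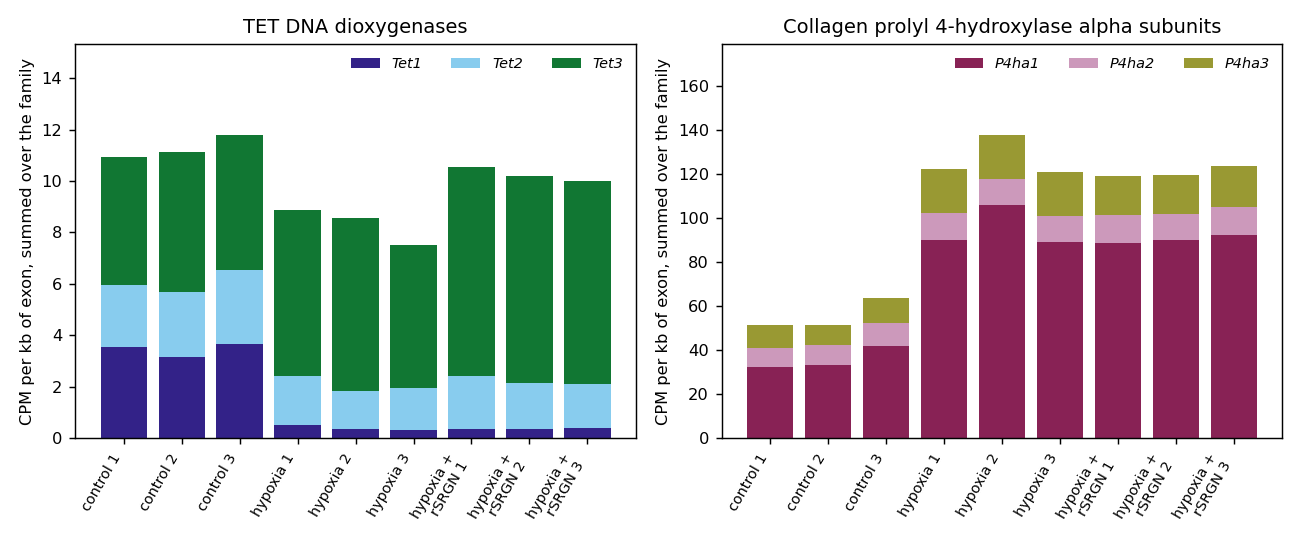
Summed CPM per kb of exon in each of the 9 libraries for the TET genes (left) and the P4ha genes (right), with bars from 0 split by gene. Tet1 takes a share of 28.3 to 32.5% in the control libraries and of 3.33 to 5.81% in the 6 hypoxic ones, and the summed P4ha level is 51.3 to 63.8 CPM per kb in control and 119 to 138 in the hypoxic libraries.

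P4ha1 (chr10:59323296-59373304, plus strand) encodes the main catalytic alpha subunit of collagen prolyl 4-hydroxylase. It had 133.9, 136.4 and 171.4 CPM in control, 370.2, 436.7 and 367.3 under hypoxia and 365.4, 370.0 and 380.5 with rSRGN. All 6 hypoxic libraries lay above the highest control library. P4ha1 was 2.66-fold higher under hypoxia (log2 fold change 1.41, SE 0.09, edgeR adjusted p = 4.70e-12), and 89.3% of the tested genes had a lower log2 fold change. P4ha2 (chr11:54100095-54131665, plus strand), an alternative alpha subunit, had 51.4, 58.0 and 65.5 CPM in control, 77.9, 72.6 and 73.4 under hypoxia and 78.1, 74.3 and 77.8 with rSRGN. Its libraries did not overlap either, while its 1.28-fold difference (log2 0.36, SE 0.08, edgeR adjusted p = 6.40e-04) was under the 1.5-fold limit.

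The summed level of the 3 alpha subunits, P4ha3 included, went from 55.6 ± 7.1 CPM per kb in control to 127 ± 9 under hypoxia and 121 ± 3 with rSRGN. P4ha1 made up 64.3% ± 0.9 of it in control and 74.8% ± 2.0 under hypoxia, and P4ha2 16.8% ± 1.0 and 9.46% ± 0.91 (exact permutation p = 0.1 each, without overlap). In the same comparison 8 of the 10 other genes of collagen hydroxylation rose and 0 fell (median log2 fold change 1.04). At an unadjusted p below 0.05, 9 were higher and 0 lower, and DESeq2 also called 8 higher and 0 lower. These included P4ha3 (0.93), the beta subunit P4hb (1.07), the prolyl 3-hydroxylases P3h1 (0.83), P3h2 (1.52) and P3h3 (1.65), their partner Crtap (1.22) and the lysyl hydroxylase Plod3 (1.16), while Plod1 (-0.10) and Plod2 (0.58) were not called. Of 8 fibrillar collagen genes, the substrates, 6 rose and 0 fell (DESeq2 6 and 0, and 7 and 0 at an unadjusted p below 0.05), with a median of 0.90. The summed fibroblast markers, 3 of which are among these collagens, were 1.88-fold higher under hypoxia and 9 of the 12 rose. Their part in the result for P4ha1 was not tested.

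Levels of different genes were compared per kb of exon. This length merges all annotated exons of a gene and is not that of the transcript expressed. The order below and the family shares above therefore depend on the annotation. In control P4ha1 was highest at 35.8 ± 5.1 CPM per kb and was followed by Kdm4b (12.1 ± 1.6), P4ha2 (9.34 ± 1.13), Kdm6b (7.68 ± 1.39) and Kdm3a (7.56 ± 0.58), each of which overlapped with the next over the libraries from Kdm4b down to Kdm3a. Kdm4c (5.69 ± 0.17) and Tet3 (5.21 ± 0.23) came next without overlap, and Kdm5b (3.50 ± 0.14) and Tet1 (3.46 ± 0.27) overlapped above Tet2 (2.61 ± 0.24), the lowest. Under hypoxia P4ha1 (95.1 ± 9.6) was followed, each without overlap with the next, by P4ha2 (11.96 ± 0.46), Kdm6b (8.72 ± 0.76), Kdm3a (7.26 ± 0.37) and Tet3 (6.24 ± 0.60). Below them Kdm4b (4.48 ± 0.67) and Kdm4c (4.02 ± 0.65) overlapped, and Kdm5b (2.19 ± 0.11), Tet2 (1.67 ± 0.21) and Tet1 (0.39 ± 0.11) followed without overlap. Kdm4b thus stood second in control and sixth under hypoxia, and Tet1 went below Tet2. With rSRGN the order was that of hypoxia, except that Tet3 (8.03 ± 0.11) stood above Kdm3a (7.18 ± 0.47) and that Kdm4c (4.58 ± 0.37) and Kdm4b (4.19 ± 0.30), which overlapped, changed places.

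Hypoxia + rSRGN was compared with hypoxia, 2 groups that shared the medium and the chamber. None of the 10 transcripts was called (0 by edgeR and 0 by DESeq2, and 2 at an unadjusted p below 0.05), where 3.13% of all tested genes were called, 2.27% higher and 0.859% lower. The median log2 difference of the 10 genes was 0.07, beside -0.03 for all tested genes. Tet3 came nearest, with a mean of 134 ± 2 CPM against 104 ± 10 CPM. All 3 rSRGN libraries of Tet3 lay above the highest hypoxia library, and the difference was 1.29-fold (log2 0.36, SE 0.08, edgeR adjusted p = 0.00247), past the p threshold and under the fold limit. Kdm5b also had no overlap between the groups, at 42.3 ± 0.6 against 36.3 ± 1.9 CPM (log2 difference 0.22, SE 0.08, edgeR adjusted p = 0.0725). Higher libraries without overlap were found for 16.5% of all tested genes in this comparison and lower ones for 15.5%, 32% together.

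For the other 8 genes the libraries of the 2 groups overlapped. The log2 differences were -0.10 for Kdm4b, -0.09 for Tet1, -0.07 for P4ha1, -0.02 for Kdm3a, 0.04 for P4ha2, 0.10 for Kdm6b, 0.14 for Tet2 and 0.19 for Kdm4c, with edgeR adjusted p-values from 0.281 to 0.921. The 95% intervals of all 10 differences lay between -0.43, the lower end for Tet1, and 0.52, the upper end for Tet3, and so inside the 1.5-fold limit. The sign changed without hypoxia replicate 1 for Tet1 (0.17), without hypoxia replicate 2 for P4ha1 (0.01), and for Kdm3a without hypoxia replicate 1 (0.01), without rSRGN replicate 2 (0.04), with DESeq2 (0.01) and with RLE scaling (0.01). In this comparison 13 of the 15 cardiomyocyte markers rose, and their summed level was 1.55-fold higher with rSRGN. Tet1 had 5.68 ± 0.39 against 6.02 ± 1.68 CPM and Kdm4b 20.5 ± 1.4 against 21.9 ± 3.3 CPM, and the part of the cardiomyocyte markers in these values was not tested. Of the 10 other collagen hydroxylation genes and the 8 fibrillar collagens, edgeR and DESeq2 each called 0 with rSRGN, and 2 of each list had an unadjusted p below 0.05.

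**Figure D3:**
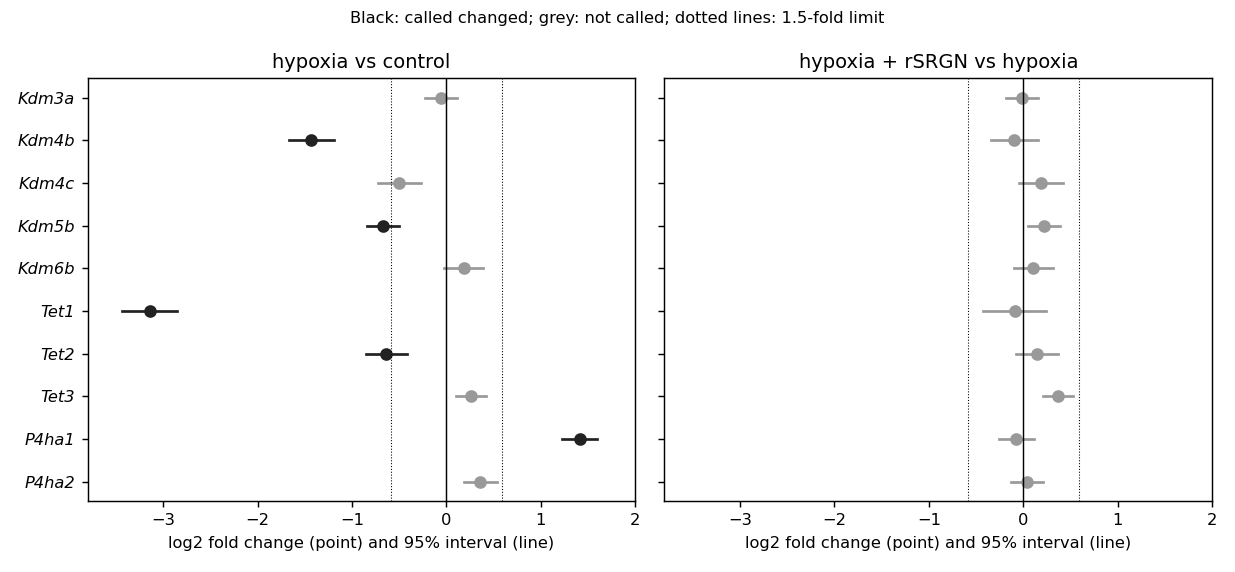
Log2 fold changes (points) with 95% intervals (lines) of the 10 transcripts for hypoxia against control (left) and hypoxia + rSRGN against hypoxia (right); dotted lines mark the 1.5-fold limit, and black marks genes called changed. The left panel spans -3.14 for Tet1 to 1.41 for P4ha1, while all points on the right lie between -0.10 and 0.36.

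Against control, with which it shares neither oxygen nor medium, hypoxia + rSRGN gave 2 higher transcripts, Tet3 and P4ha1, and 2 lower ones, Kdm4b and Tet1, where 48.8% of all tested genes were called, 24.1% higher and 24.7% lower. Tet3 was 1.54-fold higher (log2 fold change 0.62, SE 0.08, edgeR adjusted p = 2.32e-07). This call was lost at the fold limit without control replicate 1 (0.58) and when every gene with a count in any library was kept for testing (0.58). P4ha1 was 2.53-fold higher (log2 1.34), Kdm4b 2.88-fold lower (log2 -1.53) and Tet1 9.40-fold lower (log2 -3.23), with edgeR adjusted p-values of 1.36e-11, 8.63e-11 and 7.17e-15. Kdm5b (-0.45), Tet2 (-0.49), Kdm4c (-0.31), Kdm6b (0.29) and P4ha2 (0.40) passed the adjusted p threshold without reaching 1.5-fold, and Kdm3a (-0.07, edgeR adjusted p = 0.429) did not. Libraries did not overlap for 3 higher genes (Tet3, P4ha1 and P4ha2) and 5 lower ones (Kdm4b, Kdm4c, Kdm5b, Tet1 and Tet2), where 36.6% of all tested genes were higher and 36.6% lower without overlap, 73.3% in all. Both comparisons with control share the control libraries and are not independent of each other.

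Other enzymes that use oxygen and 2-oxoglutarate, and the enzymes that write the same marks, give the setting of these values in hypoxia against control, where 26.4% of all tested genes rose, 25.1% fell and the median was 0.05. Of 16 tested JmjC proteins beside the 5 demethylases above, 5 fell (Kdm2a, Kdm3b, Kdm5c, Kdm7a and Jarid2), 1 rose (Jmjd6) and 10 were not called (median log2 fold change -0.31). Kdm2a lay at the 1.5-fold limit itself, and with no fold limit 11 of the 16 were called lower. Kdm7a, a demethylase of lysines 9 and 27, was at -1.03 and was the 1 gene of this list called with rSRGN against hypoxia, at 0.68. Of 4 hydroxylases that act on HIF (median -0.61), Hif1an (-2.02) and Egln1 (-0.82) fell, and Egln2 (-0.11) and Egln3 (-0.39) were not called. The value for Egln3 is imprecise (SE 0.30), since it ran from 10.1 to 49.8 CPM in control and from 19.2 to 23.5 CPM under hypoxia. Of 20 other tested 2-oxoglutarate oxygenases (median -0.33), 9 fell, among them Phyh (-2.24), which acts in peroxisomal fatty acid breakdown, Asph (-1.37), which hydroxylates aspartate residues, and the RNA demethylases Alkbh5 (-0.95) and Fto (-0.76). The 4 that rose were Tyw5 (1.36), Alkbh1 (1.17), Hspbap1 (1.07) and Alkbh2 (0.99).

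Of the flavin-dependent demethylases, which do not use 2-oxoglutarate, Kdm1b fell (-0.72) and Kdm1a (-0.14) was not called. Among 6 methyltransferases of lysine 9 and 6 of lysine 4, edgeR and DESeq2 each called 0 changed, with 1 and 3 at an unadjusted p below 0.05. Their median log2 fold changes were -0.04 and 0.05, and that of the 4 lysine 27 genes was -0.03. Without control replicate 1, without hypoxia replicate 3 or with every gene that had a count kept, 1 of the lysine 9 enzymes was called lower. In the Polycomb complex that methylates lysine 27, Ezh2 (0.64) was called higher and Ezh1 (-0.61) lower, close to the limit. The count of genes called higher was 0 without control replicate 2, control replicate 3 or hypoxia replicate 2 or with every gene that had a count kept. The count called lower was 0 without hypoxia replicate 2 or with library size alone and 2 with every gene that had a count kept. Both counts were 2 without hypoxia replicate 1 or with no fold limit. Of 8 DNA methyltransferases and TET partners (median -0.53), 4 fell, namely Dnmt3a (-1.39), a DNA methyltransferase, Tdg (-0.63), the glycosylase that removes oxidised cytosines, and the CXXC proteins Cxxc4 (-1.45) and Cxxc5 (-1.76). Uhrf1 (0.89) rose, and Dnmt1, the maintenance methyltransferase, was at 0.01.

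Of 14 genes that supply or consume 2-oxoglutarate, iron and ascorbate, 8 fell and 2 rose (median log2 fold change -0.77). The falls included those of the mitochondrial enzymes Ogdh (-2.35), Idh3a (-2.10), Idh3g (-1.72), Idh2 (-1.70) and Idh3b (-0.87) and of the transferrin receptor Tfrc (-3.89), and the rises were in the ascorbate transporter Slc23a1 (1.20) and the ferritin light chain Ftl1 (0.83). Tfrc was the 1 gene of this list called with rSRGN against hypoxia, at 0.71. Of 17 hypoxia response genes, 5 rose, as P4ha1 did, namely Ndrg1 (1.48), Adm (1.39), Pfkfb3 (1.27), Car9 (0.88) and Ero1l (0.72). A further 10 fell, among them Pdk1 (-3.06), Ankrd37 (-2.96), Bnip3 (-2.14), Hk2 (-2.00) and Ldha (-1.07), and Vegfa (-0.13) was not called, so that the list had a median of -0.72.

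**Figure D4:**
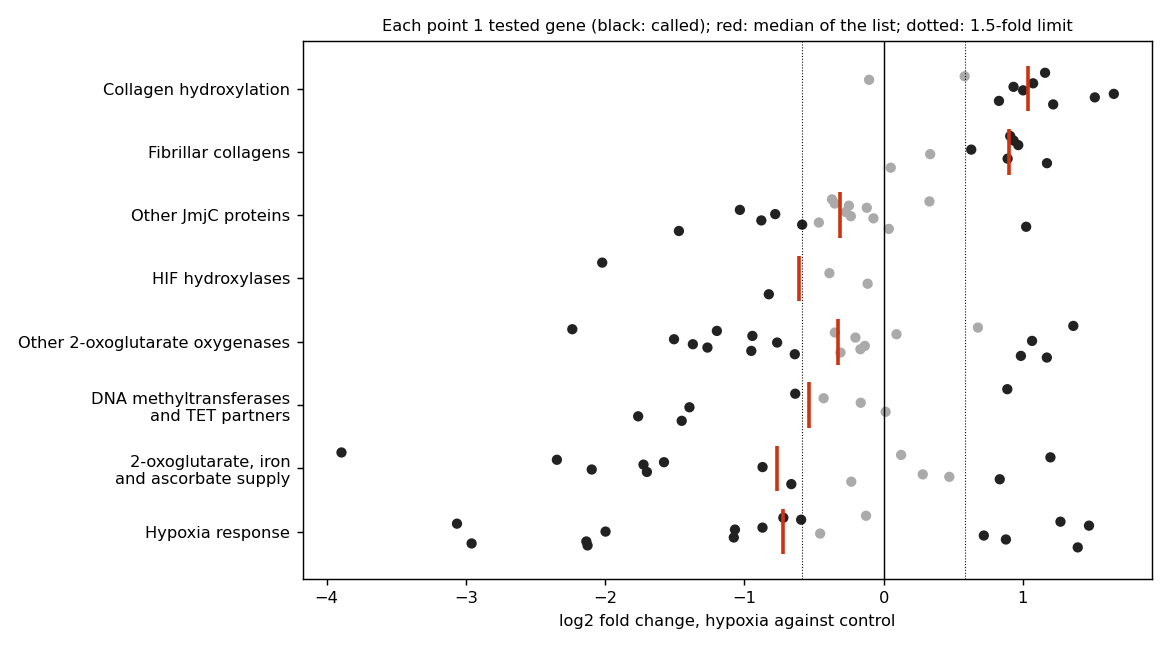
Log2 fold change for hypoxia against control of every tested gene of 8 lists (points, black where called), with the median of each list in red and the 1.5-fold limit dotted. The collagen hydroxylation genes and fibrillar collagens have medians of 1.04 and 0.90, while the other 6 lists shown have medians below 0. The flavin-dependent demethylases and the histone methyltransferases are not shown.

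The genes with the most similar pattern over the 9 libraries were found by the root mean square difference of log2 CPM, each gene centred on its own mean, among 14256 tested genes with a mean of at least 1 CPM. The 2 nearest to Tet1 were Lrrc39 (0.16) and Gm8113 (0.16), and the 2 nearest to P4ha1 were Gpc3 (0.07) and Mthfd2 (0.07). Tet3 was nearest to Ano6 (0.04) and Tcf12 (0.06), Tet2 to Zfp568 (0.05) and Zfp445 (0.08), and P4ha2 to Ccdc80 (0.05) and Cyfip1 (0.06). Among the demethylases, Kdm3a was nearest to Rnf20 (0.04) and Sirpa (0.05), Kdm4b to Gatd3a (0.10) and Mpi (0.10), Kdm4c to Tlk1 (0.08) and Hmbox1 (0.08), Kdm5b to Nhlrc2 (0.03) and Tbl1x (0.04), and Kdm6b to Kif3c (0.08) and Cic (0.08). None of the 10 genes was among the 2 nearest of another. With only 2 of 14256 genes taken for each, this says little about how alike the 10 genes are.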

How the data were processed

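The authors deposited whole-number counts of fragments per gene, without normalization. Per the file headers these counts were made with featureCounts 2.0.1, paired-end, on exons of GENCODE release 25 (GRCm38), with no strand option. The submitters' processing notes name HISAT2 and mm10, and the version of HISAT2 is not given in the sources used here. Groups and replicate numbers came from the sample titles, and 0 count columns were left unused.

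The tests were run with edgeR 4.0.16 under R 4.3.3 (filterByExpr, TMM, 1 mean per group over 9 libraries, quasi-likelihood test, Benjamini-Hochberg adjustment over 16762 genes). This step was also run on simulated counts in which 200 genes were changed 2-fold. For hypoxia against control far more genes were called (51.6%), and the simulation does not cover a shift of that extent. Total counts per library of 16583985 to 22781557 set the precision. Alternatives were DESeq2 1.42.0, RLE scaling, library size alone, filters of at least 1 count in all and at least 10 counts in every library, unadjusted p, no fold limit, only the groups compared, a replicate block and each library left out. Between replicates of a group, chi-square per degree of freedom was 3.74 to 14.2, so that none were copies of another. Each SE printed for a log2 difference was its absolute value divided by the square root of the F statistic. The 95% intervals were built on these SE and are approximate. Family shares were tested by exact permutation. Promoters came from RefSeq (GRCm38.p6), and gene positions from the count table. Figures were drawn with matplotlib 3.10.9.

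Genes named were the 10 members, genes of the lists that were called against control or are paralogs or partners of a member, and the 2 genes nearest in pattern to each member. Egln2, Egln3, Plod1, Plod2, Kdm1a, Dnmt1 and Vegfa, list genes not called for hypoxia against control, were named after their values were seen, and Kdm6bos was named for its overlap with Kdm6b. The members and lists were chosen with earlier results of these data known. Not analysed here were proteins and data outside these 9 libraries.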

Additional observations from a re-analysis of the deposited data

How the results depend on the processing

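Of 540 values for the 10 genes under the alternatives, 518 kept their direction and their side of the threshold, 10 passed it only under the alternative, 5 no longer passed it and 7 changed sign. The sign changes were those of Kdm3a for hypoxia against control with library size alone (0.0146), of Kdm3a for rSRGN against hypoxia with DESeq2 (0.0111), RLE scaling (0.0111), without hypoxia replicate 1 (0.0099) and without rSRGN replicate 2 (0.0354), of Tet1 without hypoxia replicate 1 (0.165) and of P4ha1 without hypoxia replicate 2 (0.0142), the last 2 for rSRGN against hypoxia. With each library left out in turn, these differences of Kdm3a, Tet1 and P4ha1 between rSRGN and hypoxia ran from -0.0573 to 0.0354, from -0.223 to 0.165 and from -0.116 to 0.0142. None of these 7 values passed a threshold in either fit. With no fold limit the called members numbered 8 for hypoxia against control, 1 for rSRGN against hypoxia and 9 for rSRGN against control. With each library left out they numbered 4 to 5, 0 to 0 and 3 to 4. Over all genes, 525 were called for rSRGN against hypoxia, 899 at the unadjusted p, 2790 with no fold limit and 321 to 699 with a library left out, the lowest without hypoxia replicate 3. The other comparisons gave 8496 to 8952 genes for hypoxia and 8028 to 8535 for rSRGN against control with a library left out. Same-numbered libraries had correlations of their deviations from group means from -0.037 to 0.021. No reference from differently numbered libraries was computed, so whether the replicate numbers pair the samples is not settled. With the replicate block 8550, 495 and 8096 genes and 5, 0 and 4 members were called. The cause of these changes was not tested. Depth limits Tet1 most, at 84 to 148 counts in the hypoxic libraries.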
